A study of Mus musculus with 18 samples.

Results

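The proteasome subunit and chaperone genes of the mouse were followed through 6 groups of oocytes. They were taken by symbol: every gene whose symbol is Psm, then a letter from a to g, then a digit, without the pseudogene symbols. The pattern matched 52 symbols and 2 of them were pseudogenes, so 50 genes remained of the 53715 in the count table. By role they were 8 alpha and 7 beta subunits of the core particle, 4 beta subunits of the immunoproteasome and thymoproteasome, 6 ATPases and 11 non-ATPase subunits of the regulatory particle, 7 assembly chaperones and 6 activators or inhibitors. The last gene, *Psmc3ip*, shares the spelling only. It encodes a partner of the meiotic recombinases and is no proteasome gene, so 49 of the 50 belong to the proteasome.

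The proteasome is the barrel-shaped protease that degrades proteins marked with ubiquitin. Alpha rings gate the barrel, beta rings hold the active sites, and a regulatory particle with a ring of ATPases binds ubiquitin chains, removes them and unfolds the substrate. Oocytes depend on it at the exit from meiotic arrest, when cyclin B and securin are destroyed, and maternal proteins are cleared through the same route after fertilization.

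All oocytes came from mice of the cross C57Bl/6j x CBA/J, and each of the 6 groups had 3 libraries. Oocytes of primordial and of primary follicles were cut by laser capture microdissection (LCM) from sections of fixed ovaries. In the *in vivo* groups the ovaries were taken at 14 days of age and not cultured. In the *in vitro* groups they were taken at 7 days of age and cultured for 7 days. The medium was α-MEM with fetal bovine serum, insulin, transferrin, selenium and recombinant follicle stimulating hormone. *In vivo* MII oocytes (arrested at the second meiotic metaphase) came from adult mice given hormones to induce ovulation. *In vitro* MII oocytes came from ovaries taken at 7 days of age and cultured in the same way. Then followed 12 days of follicle culture in alginate, also with follicle stimulating hormone, and human chorionic gonadotropin. LCM oocytes of 1 stage were pooled during extraction, and nothing in the labels ties a replicate to an animal, so the spread between replicates may be technical. LCM and MII oocytes also differed in RNA extraction kit, amplification and library kit (TruSeq RNA Access, which enriches exons with capture probes, against Smart-seq II), so kit and stage cannot be told apart and no test compared them.

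The 12 LCM libraries held 15149564 to 29205503 counts each, and the 6 MII libraries 7334817 to 9978830. A gene was counted as detected above a floor of 3 reads, and 4842 to 11710 genes passed it in the LCM libraries against 13238 to 15488 in the MII libraries. Oocyte markers were present throughout, with 11 or 12 of the 12 listed above the floor in each library, but their summed level was 329 to 1947 TPM (transcript abundance scaled for gene length and library size) in LCM and 6707 to 15981 TPM in MII libraries. Theca and stroma markers summed to 453 to 11449 TPM in LCM libraries and 0.158 to 4.11 TPM in MII libraries, with *Col1a1* at 8266 to 466458 reads and 0 to 7 reads. Granulosa markers summed to 59.1 to 2276 TPM and 30.3 to 76.6 TPM, red blood cell markers to 0 to 7508 TPM and 0 to 0.755 TPM, endothelial markers to 0 to 566 TPM and 46.1 to 103 TPM, and immune markers to 0 to 16.03 TPM and 9.06 to 26.1 TPM. The part of these other cells in the proteasome values was not tested, and in pooled samples fewer cells of a type and less RNA per cell cannot be told apart.

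Promoters of 4 members are shown as examples of the unlike transcript levels described below. *Psmb5* and *Psmb6* encode catalytic subunits of the same ring whose levels lay far apart in MII oocytes. *Psmd9* and *Psmg1* encode assembly chaperones that were high in MII libraries and scarce in most LCM libraries. Each line gives the 250 bases before the start of the gene in RefSeq, 5′ to 3′ on the gene's own strand, on GRCm38.p6. *Psmb5* lies at chr14:54617996-54618245 (minus strand), *Psmb6* at chr11:70525107-70525356 (plus strand), *Psmd9* at chr5:123227940-123228189 (plus strand) and *Psmg1* at chr16:95990961-95991210 (minus strand). Capitals mark matches to TGACNNNGC, a spelling of the antioxidant response element through which *Nfe2l1* is known to activate proteasome genes.
Psmb5: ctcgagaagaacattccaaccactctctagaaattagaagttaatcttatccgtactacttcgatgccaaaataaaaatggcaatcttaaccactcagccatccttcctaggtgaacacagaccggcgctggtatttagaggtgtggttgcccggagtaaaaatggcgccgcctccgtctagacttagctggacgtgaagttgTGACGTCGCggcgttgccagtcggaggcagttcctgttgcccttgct
Psmb6: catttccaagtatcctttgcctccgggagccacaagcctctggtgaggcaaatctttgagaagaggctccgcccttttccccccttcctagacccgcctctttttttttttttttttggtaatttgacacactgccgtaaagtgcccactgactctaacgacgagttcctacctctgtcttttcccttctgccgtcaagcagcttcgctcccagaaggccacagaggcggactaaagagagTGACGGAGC
Psmd9: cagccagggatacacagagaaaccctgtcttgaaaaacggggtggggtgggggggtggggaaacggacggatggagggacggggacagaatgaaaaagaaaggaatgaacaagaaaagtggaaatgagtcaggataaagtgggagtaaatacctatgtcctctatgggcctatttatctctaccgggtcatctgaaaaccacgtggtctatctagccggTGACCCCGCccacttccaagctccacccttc
Psmg1: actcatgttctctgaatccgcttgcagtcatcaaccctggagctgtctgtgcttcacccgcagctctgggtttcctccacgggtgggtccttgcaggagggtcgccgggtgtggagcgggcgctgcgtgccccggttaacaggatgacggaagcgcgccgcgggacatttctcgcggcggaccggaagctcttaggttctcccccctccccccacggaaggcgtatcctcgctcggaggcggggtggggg

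Promoters were listed for 42 of the 50 genes. TGACNNNGC on either strand was in 5 of the 42 (11.9%), against 2743 of the 27025 promoters of all genes (10.1%). The related spelling TGAGNNNGC was in 9 of the 42 (21.4%), against 3841 of 27025 (14.2%). One or both were in 12 of the 42 and in 8 of the 25 listed promoters of constitutive subunits (32.0%), against 22.8% of all promoters. Of the 42, only *Psmc6* and *Psmd12* held both spellings. *Psmb5* and *Psmb6* each held TGACNNNGC, and their reads in MII oocytes lay far apart, as the values below show. Whether the motif bears on these levels was not tested.

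In LCM libraries the proteasome genes were seen patchily, and in MII libraries they were seen evenly. Between 24 and 43 of the 50 genes were above the floor in an LCM library and between 40 and 44 in an MII library. Only 13 genes passed the floor in each of the 12 LCM libraries: *Psma7*, *Psmb7*, the ATPases *Psmc4*, *Psmc5* and *Psmc6*, the non-ATPase subunits *Psmd1*, *Psmd2*, *Psmd3*, *Psmd4*, *Psmd6* and *Psmd11*, and the activators *Psme3* and *Psme4*. In the 6 MII libraries 38 genes passed it everywhere. The fewest members, 24 and 25, were above the floor in primordial *in vivo* library 3 and primary *in vivo* library 1, which also had few genes detected in all (6438 and 4842).

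**Figure D1:**
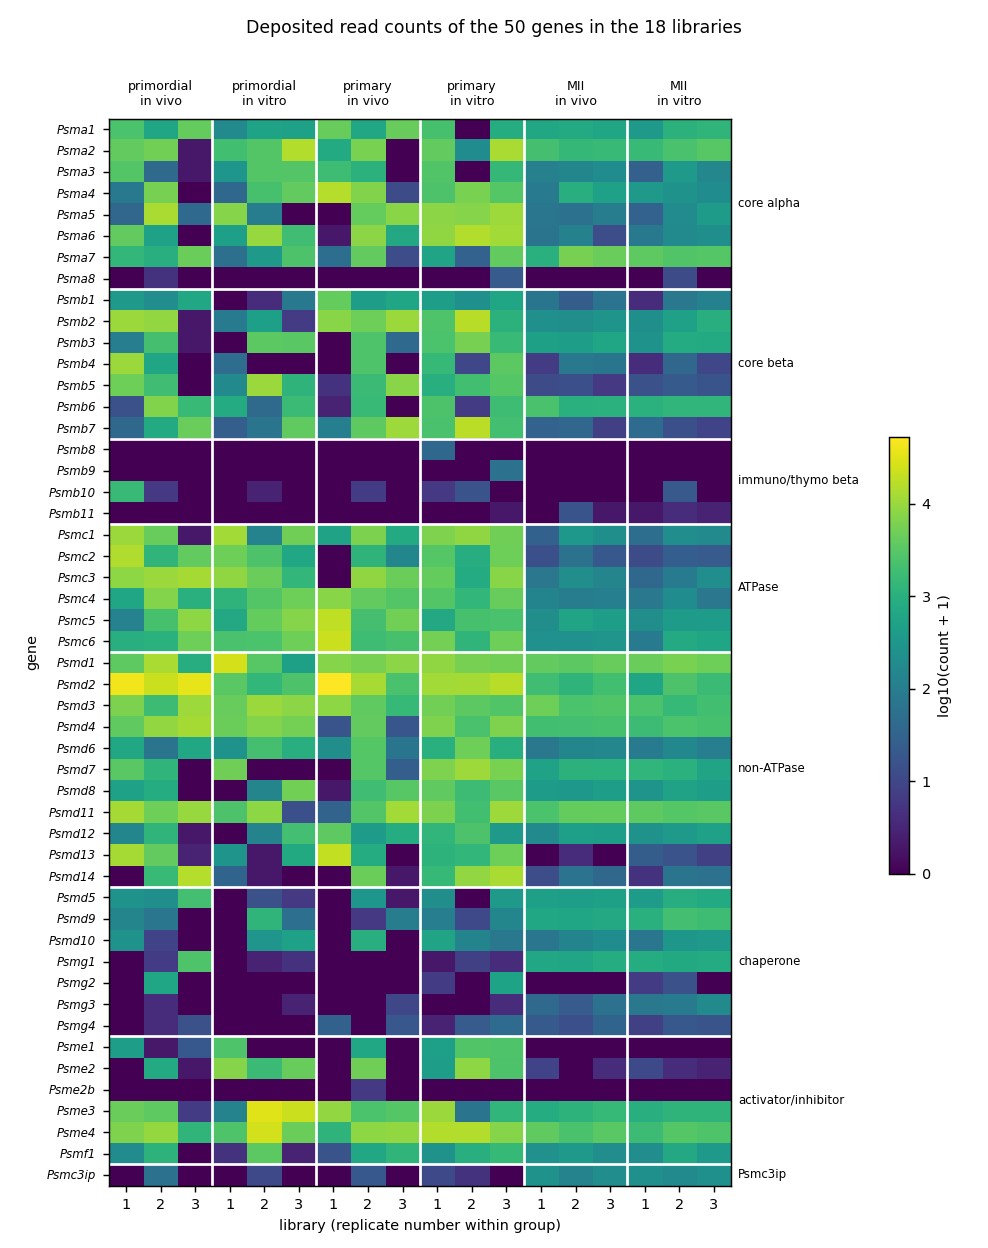
Read counts of the 50 genes (rows, by role) in the 18 libraries (columns, replicates 1 to 3 of each group), coloured by log10(count + 1). Dark cells are scattered through the 12 LCM columns, where 24 to 43 genes were above 3 reads, whereas the 6 MII columns look alike, with 40 to 44 genes above 3 reads.

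Replicates of an LCM group disagreed on which subunits were present. In the primordial *in vivo* group, 42 members reached 100 reads in a library and 22 of them (52.4%) were at or below the floor in another of its libraries, against 45.0% of all such genes. The shares were 18 of 39 (46.2%, all genes 60.1%) in the primary *in vivo* group, 10 of 35 (28.6%, all genes 51.4%) in the primordial *in vitro* group and 4 of 40 (10.0%, all genes 29.04%) in the primary *in vitro* group. In MII oocytes they were 0 of 31 *in vivo* (all genes 0.864%) and 1 of 34 *in vitro* (2.94%, all genes 0.432%), the one being *Psmb1* with 3, 76 and 120 reads. Ranked by TPM, the 50 genes gave Spearman coefficients of 0.917 to 0.971 between MII replicates (all genes 0.851 to 0.890). Between LCM replicates the coefficients were 0.248 to 0.768 (all genes 0.573 to 0.808). Both libraries of a pair share the gene set and the kit. Over the 50 genes, the median coefficient was 0.512 between LCM replicates and 0.515 between libraries of different LCM groups. For members above the floor in all 3 libraries of a group, the median SD of log2 TPM was 0.51 in MII *in vivo* oocytes (all such genes 0.60). It was 0.73 in MII *in vitro* oocytes (all such genes 0.56) and 1.19 to 1.80 in the LCM groups (all such genes 1.31 to 2.12).

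As a whole, the 50 genes took 0.498% to 0.746% of the reads in LCM libraries and 0.294% to 0.456% in MII libraries. Their summed TPM was 7826 ± 1612 (SD, n = 3) in the primordial *in vivo*, 6854 ± 494 in the primordial *in vitro*, 8652 ± 1189 in the primary *in vivo* and 8845 ± 1210 in the primary *in vitro* group. It was 2889 ± 446 in MII *in vivo* and 2781 ± 806 in MII *in vitro* oocytes. All 6 MII libraries, at 1867 to 3393 TPM, lay below all 12 LCM libraries, at 6000.2 to 10150 TPM, and within each stage the *in vivo* and *in vitro* groups overlapped.

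**Figure D2:**
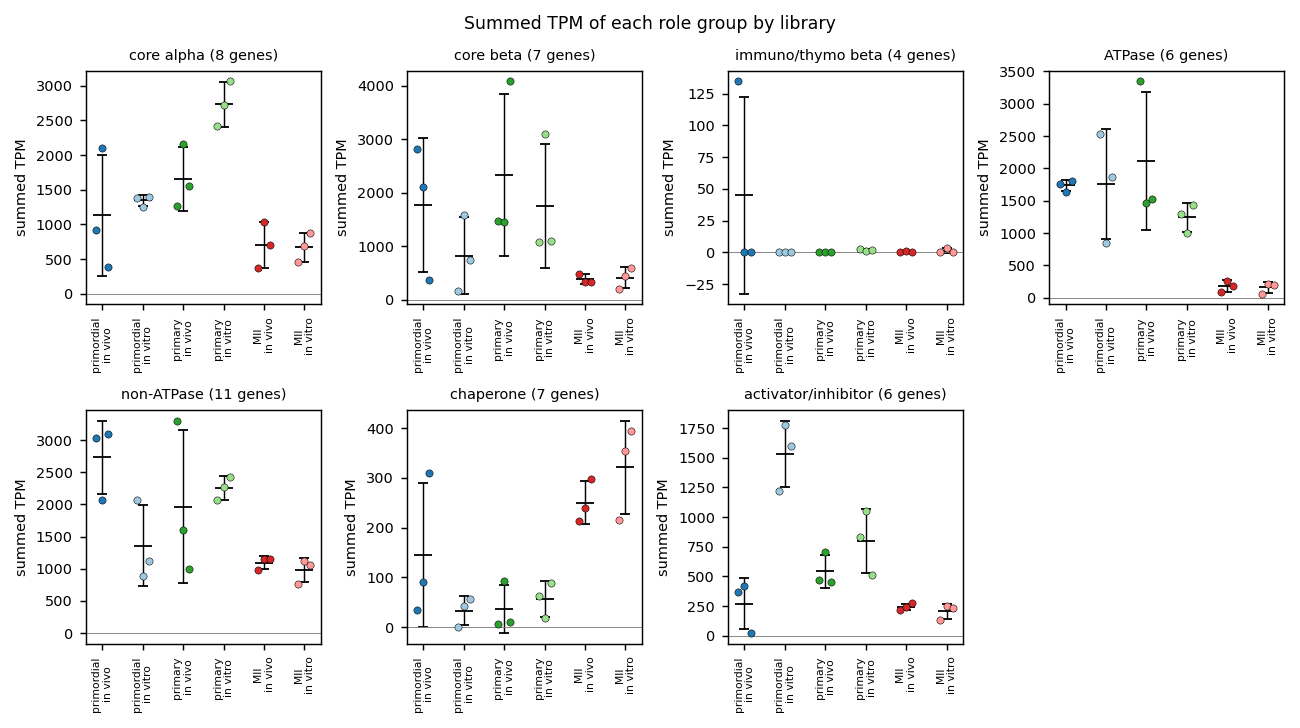
Summed TPM of each role group, 1 point per library, with the mean and SD (n = 3) per group in black; the vertical axes differ and start near 0. ATPases sum to 61.1 to 265 TPM in the MII libraries and 851 to 3346 TPM in the LCM libraries, whereas assembly chaperones sum to 214 to 395 TPM in MII and 0 to 309 TPM in LCM libraries.

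The alpha ring was led by different subunits in LCM and MII oocytes. *Psma7* was the most abundant member of all in MII oocytes by median TPM (284) and only the 32nd in LCM oocytes (35.7). In MII libraries it had 1010, 5743 and 4317 reads *in vivo* and 3549, 2791 and 2951 reads *in vitro*. *Psma5* was the reverse, with the highest median of all members in LCM oocytes (577 TPM) and 18.2 TPM in MII oocytes. Its reads in LCM libraries ran from 0 to 13249, with 36, 13249 and 40 in the primordial *in vivo* group, so that a single library carried that group's level. *Psma6* differed in the same direction, at a median of 351 TPM in LCM and 23.5 TPM in MII oocytes. *Psma1*, *Psma2*, *Psma3* and *Psma4* had MII medians of 75.1, 146, 12.4 and 33.0 TPM, so subunits that occupy the ring in equal number had transcripts differing by more than an order of magnitude. *Psma8*, the alpha subunit of male germ cells, had at most 22 reads in any library and was at 0 in 10 of the 12 LCM and 5 of the 6 MII libraries.

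In the beta ring the catalytic subunits were far apart in MII oocytes. *Psmb6*, which carries the caspase-like activity, had 2313, 986 and 1026 reads *in vivo* and 1023, 1258 and 1306 *in vitro*. *Psmb5*, with the chymotrypsin-like activity, had 11, 13 and 5 reads *in vivo* and 14, 21 and 16 *in vitro*. *Psmb7*, with the trypsin-like activity, had 29, 35 and 7 reads *in vivo* and 43, 13 and 8 *in vitro*. In TPM, which allows for gene length, the MII medians were 184 for *Psmb6*, 4.27 for *Psmb5* and 1.73 for *Psmb7*, and *Psmb6* exceeded the others in all 6 libraries. In LCM libraries the order was not fixed: *Psmb5* led in 6, *Psmb6* in 3 and *Psmb7* in 3 of the 12. *Psmb5* is overlapped by a microRNA gene on its own strand, and *Psmb7* by *Nek6* on the other strand, so their counts are less certain than those of *Psmb6*.

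Of the beta subunits without known catalytic activity, *Psmb2* was the most abundant in LCM oocytes. It had 10123, 9068 and 1 reads in the primordial *in vivo* group and 83, 454 and 6 in the primordial *in vitro* group. In primary follicle oocytes it had 7543, 4756 and 10517 reads *in vivo* and 2702, 16464 and 1073 *in vitro*. Its MII median was 63.5 TPM, below those of *Psmb6* and *Psmb3* (71.4 TPM). *Psmb1* (18.4 TPM) and *Psmb4* (3.33 TPM) were low in MII oocytes, and each had 3 reads in MII *in vitro* library 1.

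The subunits that replace the catalytic ones in immune cells and thymus were close to absent. *Psmb8* had 37 reads in 1 LCM library (primary *in vitro* 1) and *Psmb9* 60 reads in another (primary *in vitro* 3), and both were at 0 in the other 17 libraries. *Psmb10* had 1580 reads in primordial *in vivo* library 1 and at most 20 in any other. In that library the leukocyte marker *Ptprc* and the macrophage marker *Adgre1* were at 0, as they were in all 18 libraries, and *Cd74* had 6 reads. *Psmb11*, of the thymic cortex, had at most 16 reads. In MII libraries a count of 0 allows up to 0.301 to 0.409 CPM (reads scaled for library size), the level of 3 reads. These limits cover counting error only, since the reads carry no molecular identifiers.

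The ATPases had a low summed TPM in MII oocytes beside the other subunits of the regulatory particle. All 6 ATPases had a lower median in MII than in LCM oocytes: 29.1 against 357 TPM for *Psmc1*, 1.23 against 47.4 for *Psmc2*, 12.9 against 356 for *Psmc3*, 14.7 against 220 for *Psmc4*, 83.1 against 220 for *Psmc5* and 24.3 against 133 for *Psmc6*. A lower MII median was not particular to the ATPases. It was found for 22 of the 31 constitutive subunits, among them the non-ATPase subunits *Psmd2*, *Psmd13* and *Psmd14*. The summed TPM of non-ATPase subunits was 4.35 to 12.5 times that of the ATPases in the 6 MII libraries (median 5.77) and 0.604 to 2.28 times in the 12 LCM libraries (median 1.18). These sums hold 11 and 6 genes, and LCM and MII libraries differ in kit. *Psmc4* was the only member whose 6 MII libraries (8.54 to 26.4 TPM) all lay below the 12 LCM libraries (41.7 to 499.7 TPM), as did 1.37% of the genes with a TPM above 0. *Psmc5*, the most abundant ATPase in MII oocytes, had 213, 577 and 436 reads *in vivo* and 215, 397 and 388 *in vitro*.

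Non-ATPase subunits summed to 1097 ± 95.3 TPM in MII *in vivo* and 976 ± 186 TPM in MII *in vitro* oocytes (SD, n = 3), with the smallest SD relative to the mean among the role groups there. *Psmd4*, a ubiquitin receptor, had 1971, 2061 and 2207 reads in MII *in vivo* and 1711, 2431 and 2233 in MII *in vitro* oocytes. *Psmd1*, a scaffold subunit, had 3922, 3396 and 4173 reads and 4379, 5981 and 4874 reads. *Psmd11*, *Psmd3*, *Psmd7* and *Psmd2* had MII medians of 144, 143, 132 and 128 TPM. These subunits were close to one another, and all 11 non-ATPase subunits but *Psmd6*, *Psmd13* and *Psmd14* had MII medians above 39 TPM. *Psmd14*, the deubiquitinase that removes ubiquitin chains at the pore, was among the exceptions at 5.15 TPM, and *Psmd13* had 0, 3 and 0 reads *in vivo* and 24, 15 and 7 *in vitro*. In LCM libraries those 2 genes reached 15710 and 19229 reads and were also at 0 in others. *Psmd13* overlaps *Sirt3* on the opposite strand, and whether counting used strand is not given in the sources used here.

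The assembly chaperones were split between LCM and MII oocytes. *Psmg1*, which pairs with *Psmg2* to start the alpha ring, had 672, 603 and 848 reads in MII *in vivo* and 840, 733 and 812 in MII *in vitro* oocytes, and ranked 5th of the 50 genes in MII oocytes (153 TPM). In LCM oocytes it had 0, 6 and 2657 reads in the primordial *in vivo* group and at most 7 reads in the other 9 libraries. Its partner *Psmg2* had 622 reads in primordial *in vivo* library 2, 539 in primary *in vitro* library 3, and at most 14 reads elsewhere, MII oocytes included. The transcripts of the 2 partners thus did not share a pattern, with *Psmg1* at 603 to 848 reads in the 6 MII libraries and *Psmg2* above the floor in 2 of 6.

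*Psmg3* and *Psmg4*, which form the second chaperone pair of the alpha ring, were low. *Psmg3* had 40, 22 and 59 reads in MII *in vivo* and 77, 83 and 174 in MII *in vitro* oocytes, and at most 9 in LCM libraries. *Psmg4* had 7 to 33 reads in MII and 0 to 43 in LCM libraries. Of the chaperones of the ATPase ring, *Psmd9* had 693, 620 and 702 reads in MII *in vivo* and 1000.0, 2056 and 1804 in MII *in vitro* oocytes, *Psmd5* had 394 to 866 reads over the 6 libraries, and *Psmd10* had 71 to 353. In LCM libraries *Psmd9* had 0 to 1217 reads with a median of 61.5, and *Psmd5* and *Psmd10* medians of 114.5 and 105. *Psmd9* overlaps *Hpd* on the opposite strand.

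Among the activators, the pair that is induced by interferon differed from the others. *Psme1* was at 0 in all 6 MII libraries and reached 2758 reads in LCM libraries, and *Psme2* had at most 10 reads in MII and up to 8237 in LCM libraries. *Psme3*, a nuclear activator, had 839, 1131 and 1446 reads in MII *in vivo* and 907, 1191 and 1190 in MII *in vitro* oocytes. In LCM oocytes it had 4476, 3538 and 6 reads (primordial *in vivo*), 129, 31415 and 21755 (primordial *in vitro*), 9272, 2400 and 3029 (primary *in vivo*) and 10248, 66 and 1310 (primary *in vitro*). *Psme4*, an ATP-independent activator, was above the floor in all 18 libraries, at 1725 to 3784 reads in MII and 1196 to 25260 in LCM libraries. The inhibitor *Psmf1* had 207 to 720 reads in MII libraries, and *Psme2b* had 5 reads in 1 library and 0 elsewhere. *Psmc3ip* had 257, 128 and 209 reads in MII *in vivo* and 236, 178 and 235 in MII *in vitro* oocytes, and 0 to 59 reads in LCM libraries.

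Between LCM and MII oocytes, 27 members had the higher median TPM in LCM and 18 in MII libraries, with 5 equal. Of the 31 constitutive subunits of the core and regulatory particles, 22 were higher in LCM and 9 in MII. Among the 25701 genes with a TPM above 0 in a library, 4594 were higher in LCM and 12834 in MII. Every MII library lay above every LCM library for 3 members, *Psmd9* (26.9 to 80.5 against 0 to 19.7 TPM), *Psmg3* (2.55 to 18.4 against 0 to 0.608 TPM) and *Psmc3ip* (23.6 to 39.8 against 0 to 4.60 TPM), and for 16.1% of all genes. These are levels in libraries of different kits, and no test compared them.

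**Figure D3:**
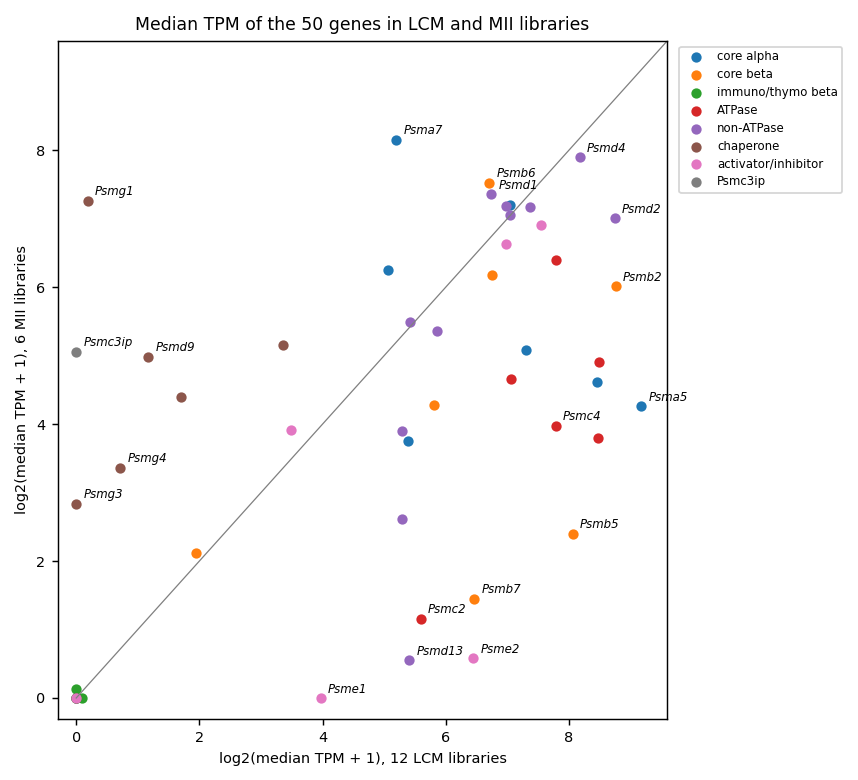
Median TPM of each gene over the 12 LCM libraries (horizontal) and the 6 MII libraries (vertical), both as log2(TPM + 1), coloured by role, with the line of equal levels in grey. *Psmg1* (0.141 and 153 TPM) and *Psmc3ip* (0 and 32.4 TPM) sit at the upper left, and *Psmb5* (267 and 4.27 TPM) and *Psme2* (86.5 and 0.493 TPM) at the lower right.

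The comparison of *in vitro* with *in vivo* grown MII oocytes had the most even libraries, and no member passed the test. edgeR called 0 of 46 members tested (0.35% of the 17144 genes tested were called) where a call needed an adjusted p under 0.05 together with a 2-fold change. At an unadjusted p under 0.05 there were 4 of 46 (10.2% of all genes), and DESeq2 called 1 (2.05% of all genes), *Psmd9*. In this comparison 25 members were higher *in vitro* and 21 lower, and the median log2 fold change was 0.06 over members and 0.04 over all genes. With the 3 members at 0 *in vivo* set to their lower limit the median was 0.06.

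*Psmd9*, a chaperone of the ATPase ring, had the smallest p. After TMM normalization it was at 82.8, 74.4 and 72.3 CPM *in vivo* and at 116, 194 and 202 CPM *in vitro*. All 3 *in vitro* libraries lay above the *in vivo* ones, which was also so for 5 members in all and in the opposite direction for 1, a total of 6 of 46 where 16.2% of all genes did not overlap. Here and in the comparisons below, overlap was judged on CPM after TMM. The log2 fold change was 1.16 (SE 0.34) with an edgeR adjusted p of 0.242, and 1.14 (SE 0.35) with an adjusted p of 0.0489 in DESeq2. The DESeq2 call and the edgeR result thus differed in their side of the threshold but not in size.

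*Psmb2* and *Psmg3* were next. *Psmb2* was at 28.0, 25.4 and 28.5 CPM *in vivo* and 26.4, 47.2 and 105 CPM *in vitro*, a log2 difference of 1.12 (SE 0.47, edgeR adjusted p = 0.456) in which the groups overlapped. Without MII *in vitro* library 3 the *Psmb2* difference was 0.42. *Psmg3* was at 4.78, 2.64 and 6.08 CPM *in vivo* and 8.93, 7.85 and 19.5 CPM *in vitro*, a log2 difference of 1.42 (SE 0.64, edgeR adjusted p = 0.478) without overlap, and 0.89 without the same library. The other members without overlap were *Psmb5* and *Psmd13*, both under 3 CPM, *Psmd1* (408 to 469 CPM *in vivo*, 508 to 565 CPM *in vitro*, log2 0.31, SE 0.30) and *Psmd3*. In TPM the groups overlapped for *Psmb5* and *Psmd1*. *Psmd3* was the 1 that was lower *in vitro*, at 575, 295 and 286 CPM *in vivo* and 286, 136 and 220 CPM *in vitro*, so that the groups all but touched (log2 -0.85, SE 0.39, edgeR adjusted p = 0.484).

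The leading member of each role lay close between the MII groups. *Psma7* was at 418 ± 285 CPM *in vivo* and 335 ± 73.97 CPM *in vitro* (SD, n = 3), with a log2 fold change of -0.32 (SE 0.49, edgeR adjusted p = 0.881). *Psmb6* had -0.38 (SE 0.39, adjusted p = 0.786 in edgeR), *Psmc5* -0.40 (SE 0.43, adjusted p = 0.802) and *Psmd4* -0.07 (SE 0.30, adjusted p = 0.968). *Psme3* had -0.13 (SE 0.32, edgeR adjusted p = 0.932), *Psmc3ip* 0.06 (SE 0.45, adjusted p = 0.981), and *Psmg1* 0.10 (SE 0.32, adjusted p = 0.953). *Psmb10* and *Psmg2* were at 0 in all *in vivo* libraries and above the floor in 1 and 2 *in vitro* libraries. Their *in vitro* means were 1.91 and 1.94 times a floor of 3 counts per library, a lower limit of the fold by the mean alone. Their fitted log2 values (5.56 and 5.65, edgeR adjusted p = 0.509 and 0.502) depend on the prior count and are no measure of that size. By role, higher and lower *in vitro* were 6 and 2 alpha subunits, 4 and 3 beta subunits, and 1 and 5 ATPases. The numbers were 4 and 7 for non-ATPase subunits, 6 and 1 for chaperones, and 2 and 2 for activators or inhibitors. Over all genes 51.7% were higher, and no member passed the edgeR test.

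**Figure D4:**
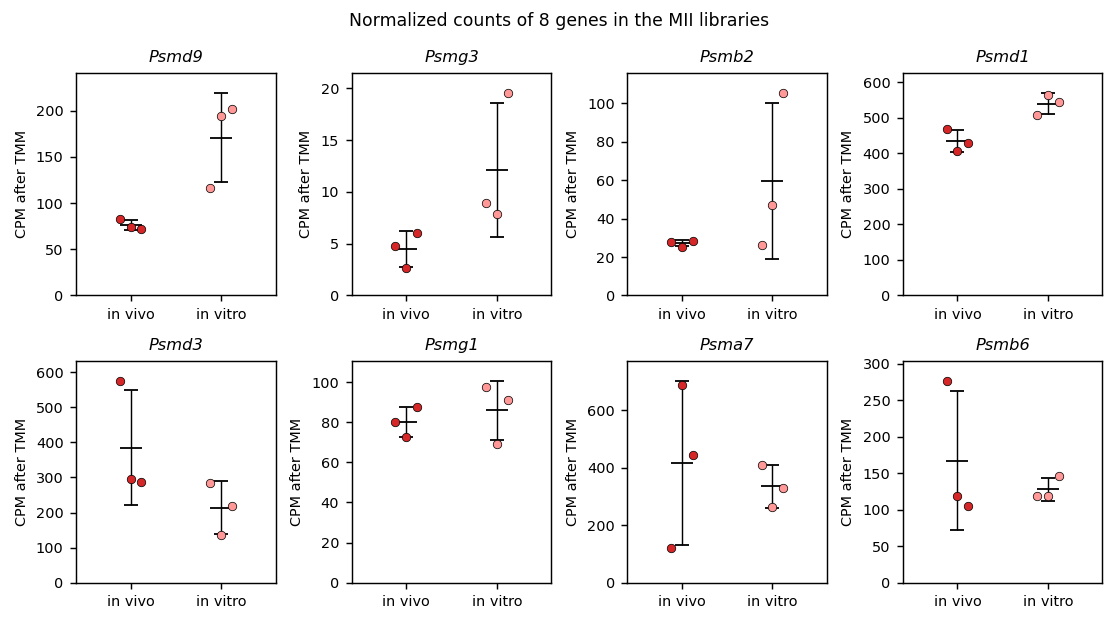
CPM after TMM of 8 genes in the MII libraries, 1 point per library, with mean and SD (n = 3) in black and axes from 0. The *in vitro* points of *Psmd9* (116 to 202 CPM) lie above its *in vivo* points (72.3 to 82.8 CPM), while the groups overlap for *Psmb2*, *Psmg1*, *Psma7* and *Psmb6*.

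In oocytes of primordial follicles, grown *in vitro* against *in vivo*, 0 of 48 members were called by edgeR (0.0326% of the 15317 genes tested). At an unadjusted p under 0.05 there were 7 of 48 (11.7% of all genes), and DESeq2 called 1 (5.3% of all genes), *Psmd5*. Members divided into 24 higher and 22 lower, and 42.7% of all genes were higher. The median log2 fold change was 0.03 over members, or 0.08 with genes at 0 set to their lower limit, against 0 over all genes. Groups did not overlap for 4 members (6.59% of all genes), *Psme2* higher and *Psmd2*, *Psmb1* and *Psmd5* lower *in vitro*.

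*Psmd2*, a scaffold subunit of the base, had 41860, 22174 and 35483 reads *in vivo* and 3288, 1325 and 2505 reads *in vitro*. That is 1489 ± 578 CPM against 136 ± 94.6 CPM (SD, n = 3), with a log2 fold change of -3.46 (SE 1.57, edgeR adjusted p = 0.373). The 3 *in vivo* libraries were each above all *in vitro* ones, and still the difference did not pass the test over all genes. The biological coefficient of variation of the LCM fit was 2.02 and that of the MII fit 0.726.

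The other members with small p rested on 1 or 2 libraries. *Psmd14* had 0, 1551 and 15710 reads *in vivo* and 32, 1 and 0 *in vitro* (log2 -8.55, SE 2.995, edgeR adjusted p = 0.359), and leaving out 1 library moved this between -13.53 and -5.20. *Psmg2* was at 0, 622 and 0 reads against 0 in all *in vitro* libraries, at least 58.7-fold higher *in vivo* by the mean but by 1 library alone (fitted log2 -10.48, SE 4.51, edgeR adjusted p = 0.359). *Psmg1*, with 0, 6 and 2657 reads *in vivo* and 0, 2 and 4 *in vitro*, had a log2 fold change of -8.92 (SE 4.42, edgeR adjusted p = 0.413). Without primordial *in vivo* library 3 the *Psmg1* difference was -0.29, and without library 2 that of *Psmg2* was 0. *Psmd5*, which is named because DESeq2 called it and was thus chosen after its values were seen, had 254, 229 and 2016 reads *in vivo* and 0, 14 and 5 *in vitro*. Its log2 fold change was -7.32 (SE 4.11, edgeR adjusted p = 0.454) and in DESeq2 -7.64 (SE 2.51, adjusted p = 0.0308).

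The leading members of the roles in LCM oocytes varied as widely. *Psmb2* had a log2 fold change of -5.06 (SE 2.30, edgeR adjusted p = 0.373), *Psmb10* -9.48 (SE 4.55, adjusted p = 0.398) through its single library of 1580 reads, and *Psme3* 2.78 (SE 1.93, adjusted p = 0.531). *Psma5* had 0.08 (SE 1.99), *Psmc5* 0.06 (SE 1.96), both at an edgeR adjusted p of 1.00, and *Psmc3ip* -2.49 (SE 2.90, adjusted p = 0.814). All 5 tested activators and inhibitors were higher *in vitro*, where 42.7% of all genes were higher, and their smallest edgeR adjusted p was 0.456. This role was singled out after its values were seen. Its summed TPM was 268 ± 215 *in vivo* and 1533 ± 282 *in vitro* (SD, n = 3). The 3 *in vitro* libraries, at 1224 to 1777 TPM, lay above the 3 *in vivo* ones, at 21.6 to 417 TPM. That total was carried by *Psme3* (31415 and 21755 reads) in 2 of the *in vitro* libraries and by *Psme2* (7421 reads) in the other. In primary follicle oocytes 3 genes of this role were higher and 2 lower *in vitro*. Their totals overlapped there, at 454 to 703 TPM *in vivo* and 515 to 1048 TPM *in vitro*.

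**Figure D5:**
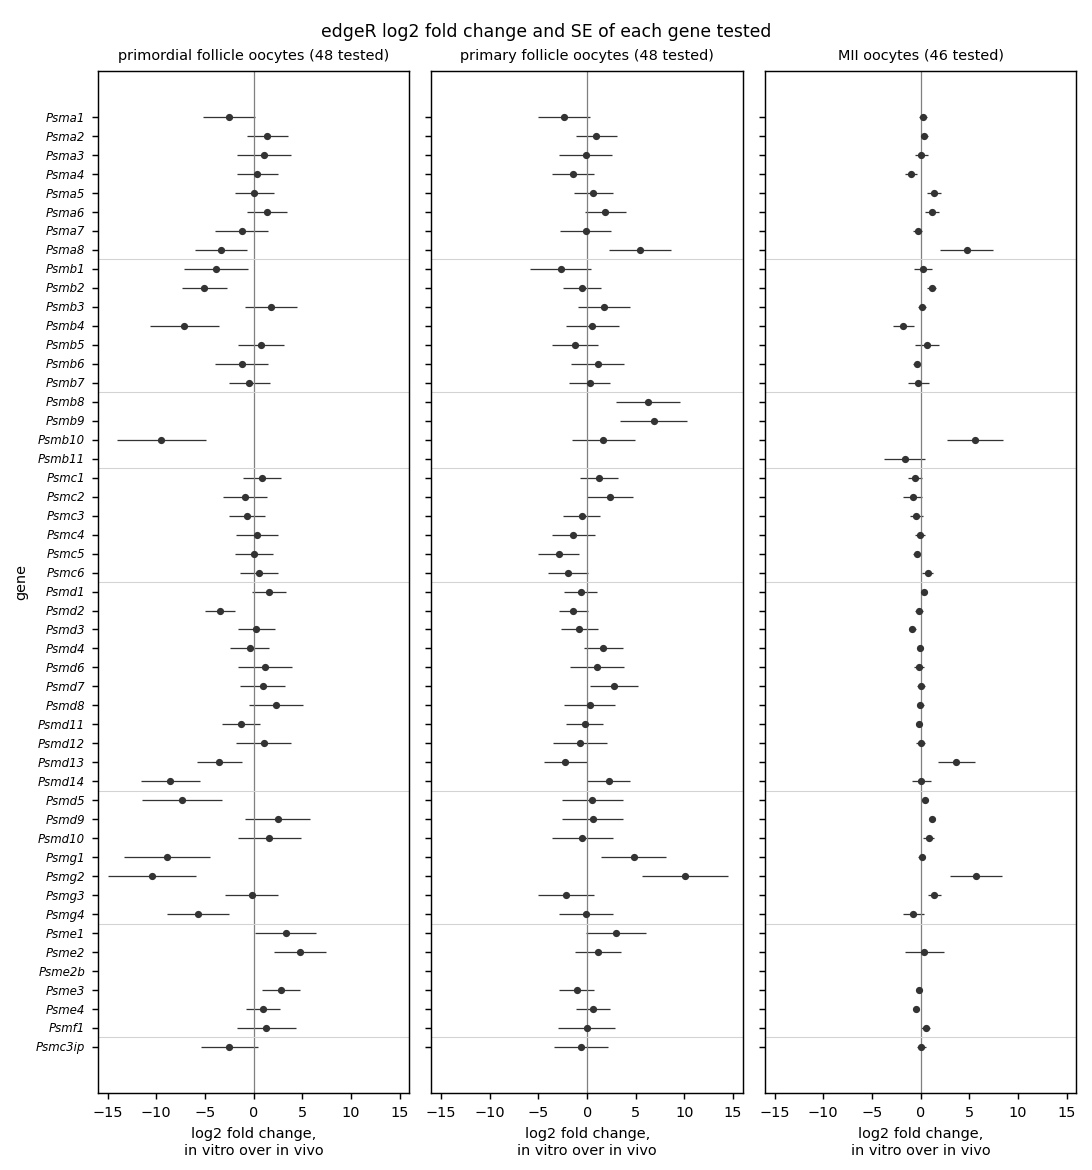
edgeR log2 fold change of each tested gene, *in vitro* over *in vivo*, with its SE, in primordial follicle, primary follicle and MII oocytes; genes at 0 in both groups are left out. Bars span several log2 units in the LCM panels and mostly under 1 in the MII panel, and 0 members were called in each panel.

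In oocytes of primary follicles, grown *in vitro* against *in vivo*, edgeR called 0 of 48 members (0.0% of the 15317 genes). There were 2 of 48 at an unadjusted p under 0.05 (9.66% of all genes) and 0 by DESeq2 (1.66% of all genes). Higher *in vitro* were 25 and lower 23, with a median log2 fold change of 0.27 over members (0.23 with genes at 0 set to their lower limit) and 0.44 over all genes. The groups did not overlap for 3 members (9.99% of all genes), *Psmd7* and *Psmg1* higher and *Psmc4* lower *in vitro*. For *Psmc4* the reads overlapped, at 7514, 3929 and 2935 *in vivo* and 2924, 1334 and 4262 *in vitro*. Its nearest libraries lay close together in TPM, at 249 and 245.

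The 3 smallest p belonged to genes at 0 in all primary *in vivo* libraries. *Psmg2* had 6, 0 and 539 reads *in vitro*, at least 56.0-fold higher by the mean (fitted log2 10.03, SE 4.42, edgeR adjusted p = 0.440). *Psmb9* and *Psmb8* had reads in a single library each, and were at least 6.17-fold and 3.72-fold higher by the mean (edgeR adjusted p = 0.509 and 0.532). *Psmg1* had 1, 7 and 3 reads *in vitro* and 0 *in vivo*, which is near the floor (edgeR adjusted p = 0.664). *Psmd7*, a non-ATPase subunit of the lid, had 0, 3049 and 26 reads *in vivo* and 6538, 10605 and 6040 *in vitro* (log2 2.79, SE 2.45, edgeR adjusted p = 0.800). Of the leading members, *Psmc5* had 18432, 2157 and 5117 reads *in vivo* and 710, 2218 and 2358 *in vitro* (log2 -2.91, SE 2.10, edgeR adjusted p = 0.682). *Psma5* had 0.62 (SE 2.0005), *Psmb2* -0.53 (SE 1.94), *Psmb10* 1.65 (SE 3.22) and *Psmc3ip* -0.61 (SE 2.75), each at an edgeR adjusted p of 1.00. *Psmd2* had -1.40 (SE 1.45, adjusted p = 0.876) and *Psme3* -1.09 (SE 1.83, adjusted p = 0.987).

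Whether the growth difference changed with follicle stage was tested as an interaction. edgeR called 0 of 48 members (0.104% of all genes), 5 were at an unadjusted p under 0.05 (11.5% of all genes), and DESeq2 called 0 (3.62% of all genes). *Psmd14* was among the smallest p: it had 1441, 9159 and 13144 reads in primary *in vitro* and 0, 4604 and 1 in primary *in vivo* oocytes, beside the primordial values above. The difference of differences was 10.75 on the log2 scale (SE 3.67, edgeR adjusted p = 0.207). It was 21.62 without primary *in vivo* library 2, 15.73 without primordial *in vitro* library 1 and 7.40 without primordial *in vivo* library 3. *Psmg2* and *Psmg1* gave 20.51 (SE 6.32, adjusted p = 0.172) and 13.69 (SE 5.58, adjusted p = 0.302) in edgeR, values that rest on groups at 0. The median was 0.44 over members and 0.91 over all genes.

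Between stages, *in vivo* oocytes of primary against primordial follicles had 0 of 48 members called by edgeR (0.0522% of all genes), 2 at an unadjusted p under 0.05 (11.2% of all genes) and 0 by DESeq2 (3.64% of all genes). Both of the 2 were chaperones at 0 in the primary group. *Psmg1* was at least 266-fold and *Psmg2* at least 62.5-fold lower in primary follicle oocytes by the means (edgeR adjusted p = 0.380 for both), through single libraries of 2657 and 622 reads. *Psmb10* followed (log2 -8.02, SE 4.30, edgeR adjusted p = 0.461). The groups did not overlap for 2 members (6.39% of all genes), *Psmc3* and *Psmd4*, both lower in primary follicle oocytes. *Psmc3* had 8356, 10356 and 12203 against 0, 8775 and 4562 reads, which overlap. Its nearest libraries lay close together, at 358 and 352 CPM after TMM and at 466 and 461 TPM. For *Psmd4*, with 3715, 8926 and 12312 against 16, 3963 and 17 reads, the separation held only after TMM (159.2 against 159.1 CPM at the nearest libraries), and the groups overlapped in reads and in TPM. The median was 0.33 over members, or 0.41 with genes at 0 set to their lower limit, and 0 over all genes.

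*In vitro*, the same comparison of stages had 0 of 48 members called by edgeR (0.0% of all genes), 5 at an unadjusted p under 0.05 (10.9% of all genes) and 0 by DESeq2 (2.94% of all genes). *Psmd14* had 32, 1 and 0 reads in primordial and 1441, 9159 and 13144 in primary follicle oocytes (log2 8.51, SE 2.99, edgeR adjusted p = 0.384), between 7.94 and 13.49 with 1 library left out. *Psmb2* had 83, 454 and 6 reads against 2702, 16464 and 1073 (log2 5.17, SE 2.31, edgeR adjusted p = 0.387). *Psmg2* was at least 52.5-fold higher in primary follicle oocytes by the mean (edgeR adjusted p = 0.384). A single library carried that mean, with 0.195, 0 and 16.7 CPM after TMM in primary and 0 in all primordial follicle libraries. The groups did not overlap for 8 members (11.2% of all genes), of which *Psmd14*, *Psmb2*, *Psmb1*, *Psmd2*, *Psmd13* and *Psmg4* were higher and *Psmd3* and *Psmd4* lower in primary follicle oocytes. *Psmd4* had 4591, 7096 and 5373 against 6572, 2359 and 6352 reads, which overlap, as did its TPM. *Psmg1*, at 0, 2 and 4 against 1, 7 and 3 reads, had a log2 fold change of 0.62 (SE 3.12, edgeR adjusted p = 1.00). The median was 0.35 over members, also with genes at 0 set to their lower limit, and 0.44 over all genes. The *in vitro* primordial and the *in vivo* primordial group each enter 2 of these comparisons, so *Psmd14* and *Psmb2* appear in both through the same 3 libraries.

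Genes that work with the proteasome were looked at alongside. Of 28 listed (ubiquitin genes, ubiquitin-activating enzymes, shuttle factors, deubiquitinases, *Vcp* and its cofactors, and regulators of assembly and transcription), 27 were found and tested, and edgeR called 0 in each of the 6 comparisons. At an unadjusted p under 0.05 there were 2 in the primordial growth comparison, *Ufd1* (log2 -10.09, SE 4.22) and *Ubqln1* (-8.45, SE 3.80), and 1 in the primary one, *Rad23b* (3.89, SE 1.96). *Ubqln1* also passed that limit in the interaction (8.97, SE 4.48), *Ubqln1* and *Ufd1* did so between stages *in vitro* (12.46, SE 4.40, and 10.03, SE 4.21), and none did between stages *in vivo*. These counts of 2, 1, 1, 2 and 0 of 27 lie below the shares of all genes past that limit in the same comparisons (11.7%, 9.66%, 11.5%, 10.9% and 11.2%). The smallest edgeR adjusted p in the list was 0.359 for LCM oocytes. In MII oocytes the shuttle factor *Rad23b* had 137, 480 and 522 reads *in vivo* and 213, 258 and 169 *in vitro*, and the groups overlapped (log2 -0.91, SE 0.48, edgeR adjusted p = 0.509).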

How the data were processed

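RNA was measured in 18 mouse oocyte libraries. The authors used Trim Galore 0.4.1 for trimming, TopHat2 for mapping on mm10 and featureCounts for counting by gene, and deposited raw read counts. They also deposited TPM values, per gene length and library, for 28252 of the 53715 genes, and both tables hold the same reads (the implied gene length was constant within 1% for 11413 of 11413 genes tested). Whether counting used strand, and how reads mapping to several places were treated, are not given in the sources used here, so counts of overlapping genes are uncertain. Coordinates are of GENCODE M21 (GRCm38).

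Counts were tested with edgeR 4.0.16 in R 4.3.3 (TMM, glmQLFit with robust estimation, glmQLFTest, genes with at least 10 counts), in 1 fit of the 12 LCM libraries and 1 of the 6 MII libraries. Calls needed an adjusted p (Benjamini-Hochberg, all genes) under 0.05 together with a 2-fold change. Levels of different genes were compared in TPM. The floor was 3 counts, and a fold against a group at 0 is a lower limit computed against it. Scripts were tested on simulated data. DESeq2 1.42.0, limma 3.58.1 on log2(TPM + 1) and log2(TPM + 0.1), other scaling and filters, a replicate block and leaving out each library were the alternatives. DESeq2 gave no adjusted p to 7 to 9 of 48 members in the LCM and 5 of 46 in the MII comparisons, among them *Psmg1* and *Psmg2* in every LCM comparison.

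Members and gene lists were chosen with earlier results of these data known. Full values are given for called members, the 3 members with the smallest p in each comparison, the most abundant member of each role, *Psmg1* and *Psmg2* (which the study names), and the 2 other pathway genes with the smallest p, except for items that are not reported here. Genes outside this rule, among them those whose groups do not overlap and *Psmd5*, were named after their values were seen. Replicate numbers come from the labels, and same-numbered libraries did not deviate together (correlations -0.03 to 0.09), so they were not paired.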

Additional observations from a re-analysis of the deposited data

How the results depend on the processing

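The count of 0 members called held in all 6 comparisons under every alternative run but 1: DESeq2 called 1 member in the primordial growth comparison (*Psmd5*) and 1 in MII oocytes (*Psmd9*, log2 1.14). With leaving out each library in turn it stayed at 0 to 0 in every comparison. With the replicate number as a replicate block it was 0 in all 6 comparisons, where edgeR called 1 gene in the primordial growth comparison and 85 in MII oocytes. The mean number of members detected depended on the cut, being, above 0 and above 10 counts, 41.7 and 39.3 in MII *in vivo*, 44.3 and 39.7 in MII *in vitro* and 35.7 and 31.7 in primordial *in vitro* libraries, and 39.3 above 10 counts in primary *in vitro* libraries. The share of the members was 0.717% (primary *in vivo*), 0.380% (MII *in vivo*), 0.608% (primordial *in vitro*), 0.578% (primary *in vitro*) and 0.368% (MII *in vitro*) of CPM after TMM, against 0.865%, 0.289%, 0.685%, 0.885% and 0.278% of TPM. This alternative changes the scaling and the length correction together.

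Directions turned only for members far from the threshold. In the primordial growth comparison *Psma5* was at -0.22 with library size alone, -0.0436 with filterByExpr, -0.57 with limma on log2(TPM + 1) and -1.53 on log2(TPM + 0.1), and *Psmc5* at -0.15 with DESeq2's size factors and in DESeq2. In the primary growth comparison *Psmc3ip* was at 2.68 with the replicate block and 0.40 with limma on log2(TPM + 0.1). Leaving out 1 library at a time gave *Psma5* -6.52 to 6.58, *Psmc5* -0.81 to 2.06 and *Psmc3ip* -7.07 to 4.58 in the primordial, *Psmb10* -0.0111 to 5.66, *Psmd2* -1.94 to 0.55 and *Psmc3ip* -1.53 to 4.98 in the primary growth comparison, and *Psmg1* -0.49 to 1.75 between stages *in vitro*. In MII oocytes it gave *Psma7* -0.76 to 0.25, *Psmb6* -0.63 to 0.19, *Psmc5* -0.69 to 0.0048, *Psmd4* -0.16 to 0.0202, *Psmc3ip* -0.15 to 0.35 and *Psmd9* 1.011 to 1.37. The cause was not tested. The 3 libraries of a group limit the precision: the median SE of a member's log2 fold change was 2.66 and 2.53 in the LCM growth comparisons and 0.52 in MII oocytes.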

Other observations

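Some genes that work with the proteasome were far apart between LCM and MII libraries, in values that no test compared because kit and stage cannot be told apart. *Ubb*, a polyubiquitin gene, had 32977 to 157029 reads in LCM and 1944 to 3204 in MII libraries, and *Rps27a* had 0 to 10014 and 0 to 18. The AAA ATPase *Vcp*, which extracts ubiquitylated proteins for the proteasome, had a median of 453 TPM in LCM and 15.4 TPM in MII libraries.

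Other genes of the list ran the opposite way. *Pomp*, the chaperone that completes the core particle, had 0 to 70 reads in LCM and 124 to 402 in MII libraries. *Psmg3* and *Psmd9* were also higher in MII libraries. *Psmg1* was so by its median (0.141 TPM in LCM and 153 TPM in MII), while an LCM library reached 268 TPM. The median of *Psmg2* was 0 TPM in both. The shuttle factor *Ubqln1* had a median of 6.72 TPM in LCM and 268 TPM in MII libraries, *Akirin2*, which takes proteasomes into the nucleus, 90.6 and 307 TPM, and *Ddi2*, the protease that activates *Nfe2l1*, 35.8 and 162 TPM. *Nfe2l1* itself had 154 and 32.0 TPM.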
